A study of Mus musculus with 4 samples.

Results

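The genes described here encode amino acid transporters of the solute carrier superfamily in MC38, a cell line that came from a colon adenocarcinoma of a mouse. The 10 genes were named by symbol (Slc7a5, Slc3a2, Slc7a1, Slc7a3, Slc1a4, Slc1a5, Slc38a1, Slc38a2, Slc6a9 and Slc43a1), and all 10 had a row among the 26561 genes of the deposited count table. The irradiated group (IR) was wild-type MC38 cells given a single X-ray dose of 30 Gy, with RNA taken 60 h later. The unirradiated group (nonIR) was wild-type MC38 cells without that dose, and no harvest time is given for it in the sources used here, so time in culture and irradiation cannot be told apart. Each group held 2 bulk RNA-seq libraries, of 29180110 and 26059171 counts in IR cells and of 27995608 and 29881492 counts in nonIR cells. The labels do not tell whether libraries of the same group had separate cultures as their source, so p-values reflect the scatter of these libraries alone and that scatter may be technical.

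Amino acids enter and leave cells through carrier proteins in the plasma membrane. Slc7a5 (LAT1) imports large neutral amino acids such as leucine in exchange for glutamine and reaches the cell surface as a dimer with the heavy chain Slc3a2 (4F2hc, CD98), while Slc1a5 (ASCT2) and the sodium-coupled SNAT carriers supply glutamine and other small neutral amino acids. Slc7a1 and Slc7a3 carry the cationic amino acids arginine and lysine. Dividing tumour cells are known for high levels of several of these carriers. Many of the genes are known targets of the transcription factor ATF4, which is translated when amino acids run short, and leucine and arginine in turn activate the kinase complex mTORC1.

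Transcripts of most of these transporters were less abundant in the irradiated cells. Of the 10 genes, 9 passed the filter on low counts and entered edgeR's quasi-likelihood test, in which 7 fell (Slc1a4, Slc7a5, Slc7a1, Slc6a9, Slc1a5, Slc3a2 and Slc38a2), 1 rose (Slc7a3) and 1 did not pass (Slc38a1). Slc43a1 was too rare to be tested. A gene is said to have fallen or risen where its Benjamini-Hochberg adjusted p over all 15298 tested genes was under 0.05. At that threshold 60.7% of all tested genes were called, 30.3% of them lower and 30.4% higher in IR cells, so a call by itself was common in these data. A fitted fall of at least 2-fold was less common, at 3.47% of tested genes, and was found for 4 of the 9 tested transporters. Among the 9456 genes with a mean of at least 10 CPM (counts scaled to a library of 1e+06 with TMM factors), 43.2% fell, 29.5% rose and 2.69% fell at least 2-fold. Of the 8 transporters at that level, 7 fell, 0 rose and 4 fell at least 2-fold. For the same 7 of the 9 tested genes both IR libraries lay under both nonIR libraries, as they did for 38.7% of all tested genes. The median log2 fold change was -0.95 over the 9 tested transporters and 0.01 over all tested genes. Summed over the 10 genes, the transcripts came to 1025 and 1024 CPM in IR cells and to 1611 and 1601 CPM in nonIR cells. In bulk libraries, fewer cells that transcribe a gene and less RNA of it per cell cannot be told apart.

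**Figure D1:**
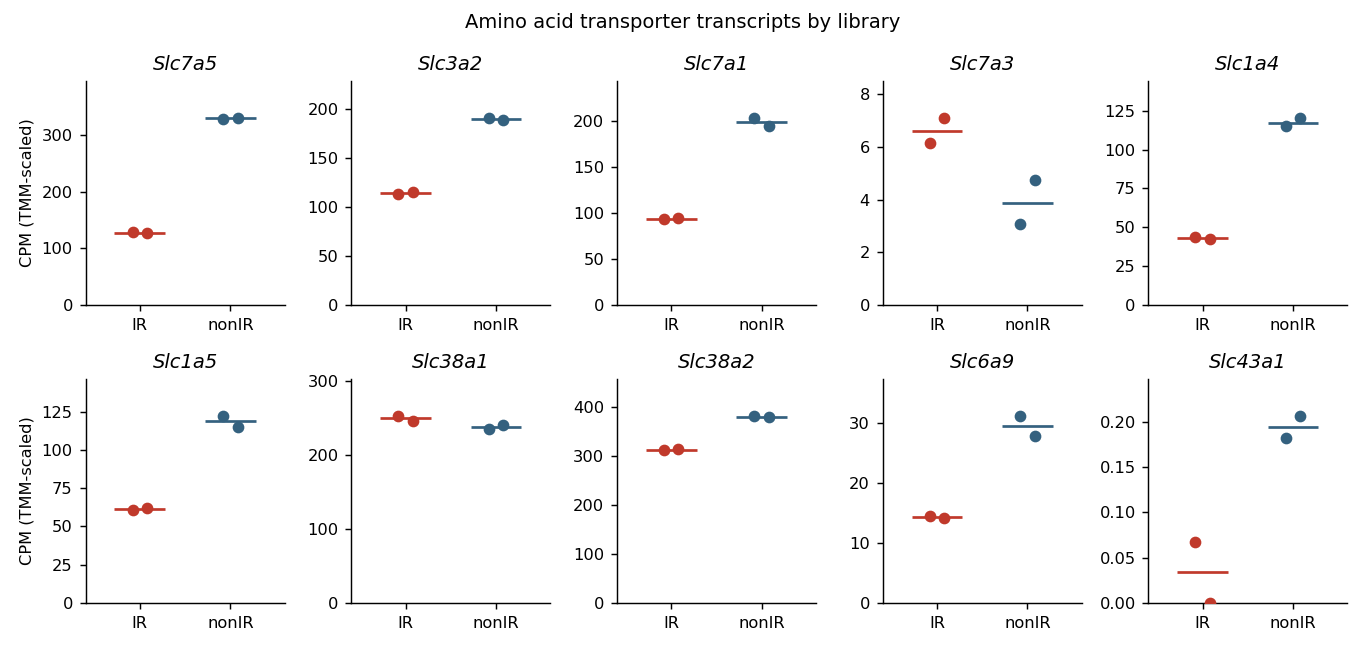
CPM (TMM-scaled) of the 10 transporter genes, with 1 point per library, a bar at the group mean, IR on the left and nonIR on the right of each panel, and an axis of its own for each gene. IR points lie below nonIR points for Slc7a5, Slc3a2, Slc7a1, Slc1a4, Slc1a5, Slc38a2, Slc6a9 and the barely detected Slc43a1, and above them for Slc7a3 and, by a small margin, Slc38a1.

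The large neutral amino acid transporter and its heavy chain both fell, and the light chain fell further. Slc7a5 (ENSMUSG00000040010, chromosome 8, 121881150 to 121907694, minus strand, GRCm38) had 129 and 127 CPM in IR cells, against 328 and 329 CPM in nonIR cells. The groups lay far apart and the libraries within each nearly coincided. It was 2.57-fold lower in IR cells (log2 fold change -1.36, SE 0.04, edgeR adjusted p = 4.42e-278), and 1.67% of all tested genes had a log2 fold change as low or lower. Slc3a2 (ENSMUSG00000010095, chromosome 19, 8706882 to 8723369, minus strand), which anchors Slc7a5 and several related light chains in the membrane, had 113 and 115 CPM in IR cells, against 190 and 188 CPM in nonIR cells. The groups did not overlap, as was the case for 78.4% of all tested genes in one direction or the other. Slc3a2 fell 1.66-fold (log2 fold change -0.73, SE 0.04, edgeR adjusted p = 3.06e-62).

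Because both genes are measured in the same library, their ratio shows the unequal change directly. Per unit of exon length, Slc7a5 transcripts were 1.09 and 1.05 times those of Slc3a2 in IR cells and 1.64 and 1.67 times in nonIR cells. The size of this ratio depends on the lengths used, and with the longest transcript of each gene as the length it was 0.913 and 0.884 in IR cells and 1.38 and 1.40 in nonIR cells. With 2 libraries against 2, an exact permutation test of such a ratio cannot give a two-sided p below 0.333, so the ratios are given as values with no test. The other partners of Slc3a2 changed less or were scarce, and were brought in here after their values had been seen. Slc7a6 (y+LAT2), an exchanger of cationic for neutral amino acids, fell by a small margin, with 95.3 and 89.2 CPM in IR cells against 101 and 105 CPM in nonIR cells (log2 fold change -0.15, SE 0.05, edgeR adjusted p = 5.32e-03). Summed over Slc7a5, Slc7a6, Slc7a7, Slc7a8 and Slc7a11, the levels per length were 211 and 200 TPM in IR cells and 398 and 401 TPM in nonIR cells. TPM here is the count per exon length, scaled to 1e+06 per library. Slc7a5 made up 61.0% and 62.4% of that sum in IR cells and 78.9% and 78.3% in nonIR cells. All 5 partners together stood at 1.78 and 1.69 times Slc3a2 in IR cells and at 2.08 and 2.13 times in nonIR cells.

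Among the cationic amino acid carriers, the main gene fell while a minor one rose. Slc7a1 (CAT-1; ENSMUSG00000041313, chromosome 5, 148327410 to 148399904, minus strand), the widely expressed importer of arginine and lysine, had 93.4 and 94.8 CPM in IR cells, against 203 and 195 CPM in nonIR cells. Both IR libraries lay far under both nonIR libraries, and the gene fell 2.12-fold (log2 fold change -1.08, SE 0.04, edgeR adjusted p = 4.63e-129). Slc7a3 (CAT-3; ENSMUSG00000031297, chromosome X, 101079210 to 101086020, minus strand), a cationic carrier known mainly from brain, had 183 and 188 counts in IR cells, against 84 and 138 counts in nonIR cells. That corresponds to 6.15 and 7.08 CPM in IR cells and to 3.06 and 4.73 CPM in nonIR cells, with the nonIR libraries wide apart. Slc7a3 rose 1.69-fold (log2 fold change 0.76, SE 0.21, edgeR adjusted p = 8.42e-04). That call rested on nonIR replicate 1, since without it the log2 fold change was 0.47 and the edgeR adjusted p was 0.0958. As levels per length, Slc7a3 stood at 0.201 and 0.228 times Slc7a1 in IR cells and at 0.0458 and 0.0738 times in nonIR cells.

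The third cationic carrier with a row, Slc7a2 (CAT-2), belongs to the wider list of amino acid transporters and rose 2.75-fold, with 47.5 and 49.1 CPM in IR cells against 15.7 and 19.4 CPM in nonIR cells (log2 fold change 1.46, SE 0.09, edgeR adjusted p = 3.97e-60). Summed over Slc7a1, Slc7a2 and Slc7a3, the level was 55.4 and 56.1 TPM in IR cells and 71.6 and 71.7 TPM in nonIR cells. The share of Slc7a1 in this sum was 54.3% and 53.2% in IR cells and 87.5% and 83.4% in nonIR cells. The summed level therefore fell less than Slc7a1 alone, to 0.778 times the nonIR level. This grouping by substrate was made after the values had been seen.

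The 2 carriers of alanine, serine and cysteine fell together. Slc1a4 (ASCT1; ENSMUSG00000020142, chromosome 11, 20302180 to 20332713, minus strand) had 43.7 and 42.3 CPM in IR cells, against 115 and 120 CPM in nonIR cells. It showed the largest fall of the 9 tested genes, 2.73-fold (log2 fold change -1.45, SE 0.06, edgeR adjusted p = 2.68e-141), and 1.39% of tested genes had a log2 fold change as low or lower. Slc1a5 (ASCT2; ENSMUSG00000001918, chromosome 7, 16781340 to 16798274, plus strand), the glutamine exchanger, had 61.0 and 62.2 CPM in IR cells, against 122 and 115 CPM in nonIR cells. Its IR libraries were nearly equal and lay well under both nonIR libraries, and it fell 1.93-fold (log2 fold change -0.95, SE 0.05, edgeR adjusted p = 5.44e-68). The level of Slc1a5 was 1.31 and 1.38 times that of Slc1a4 in IR cells and 0.998 and 0.906 times in nonIR cells. Together they held 95.6 and 93.1 TPM in IR cells and 208 and 205 TPM in nonIR cells.

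The sodium-coupled neutral amino acid carriers Slc38a1 and Slc38a2 moved little. They lie on the minus strand of chromosome 15 with 44.5 kb between them. Slc38a2 (SNAT2; ENSMUSG00000022462, 96687392 to 96699730), known for its induction when cells are starved of amino acids, had 312 and 315 CPM in IR cells, against 382 and 380 CPM in nonIR cells. The groups were apart, but the fall was the smallest of the 7, at 1.22-fold (log2 fold change -0.28, SE 0.03, edgeR adjusted p = 3.34e-17), and 28.9% of tested genes had a log2 fold change as low or lower. Slc38a1 (SNAT1; ENSMUSG00000023169, 96571418 to 96642913), a glutamine importer, had 253 and 246 CPM in IR cells, against 235 and 241 CPM in nonIR cells. Its log2 fold change was 0.07, with a 95% interval of 0.00 to 0.14, and did not pass (SE 0.04, edgeR adjusted p = 0.0936). When libraries were scaled to total counts with no TMM factor it was 0.13 (edgeR adjusted p = 9.20e-04). The level of Slc38a2 was 2.40 and 2.50 times that of Slc38a1 in IR cells and 3.17 and 3.07 times in nonIR cells.

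Slc6a9 (GLYT1; ENSMUSG00000028542, chromosome 4, 117834506 to 117875198, plus strand), the sodium- and chloride-coupled glycine transporter, had 14.4 and 14.1 CPM in IR cells, against 31.1 and 27.8 CPM in nonIR cells. The IR libraries lay under both nonIR libraries and the gene fell 2.06-fold (log2 fold change -1.04, SE 0.11, edgeR adjusted p = 4.26e-22). It was the only one of the 10 whose exons overlap another annotated gene. The overlap with Ccdc24 on the other strand takes in 27.8% of its exon length, but Ccdc24 held 62 counts over all 4 libraries against 2471 for Slc6a9. The other overlapping genes were B4galt2, also on the other strand, with 4030 counts and 46 shared bases, and Gm17114, which had no row in the table used. The sources used here do not say whether counting made use of strand.

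Slc43a1 (LAT3; ENSMUSG00000027075, chromosome 2, 84838850 to 84863594, plus strand), a facilitated carrier of branched-chain amino acids and phenylalanine, was barely detected. It had 2 and 0 counts in IR cells and 5 and 6 counts in nonIR cells. Scaled for library size it was 0.183 times as frequent in IR cells. The exact (Clopper-Pearson) 95% bounds of 0.0197 and 0.838 reflect counting error alone, and no test was made at this depth. Its relative Slc43a2 (LAT4), from the wider list, was the more abundant of the 2 genes and rose 5.20-fold, with 13.9 and 15.4 CPM in IR cells against 2.66 and 2.95 CPM in nonIR cells (log2 fold change 2.38, SE 0.18, edgeR adjusted p = 6.72e-38).

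**Figure D2:**
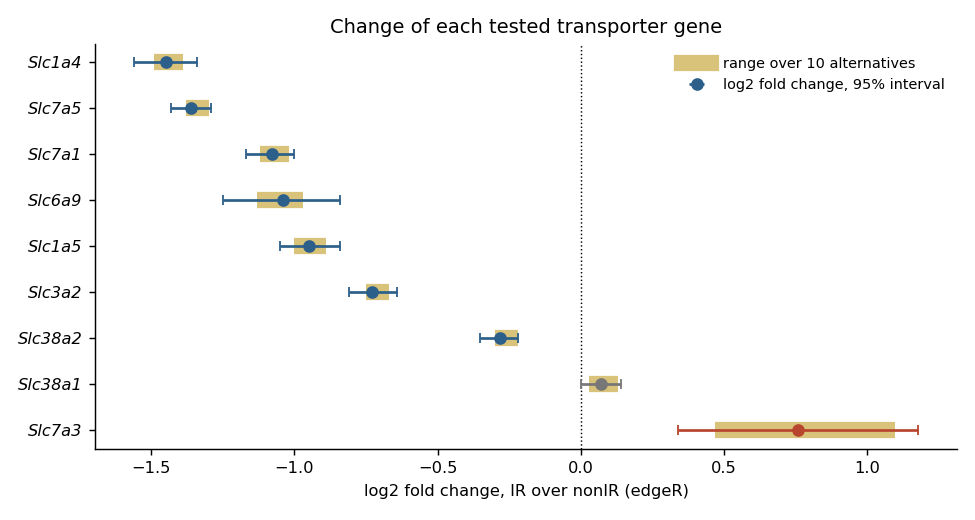
Log2 fold change of IR over nonIR for the 9 tested transporter genes, with the 95% interval (whiskers) and the range over 10 alternative analyses (bars); blue fell, red rose, grey did not pass. The 7 genes that fell stayed below 0 in every alternative run, while the range of Slc7a3 runs from 0.47 to 1.10.

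The order of the transcript levels, compared per exon length, differed between the groups. In IR cells Slc38a2 was highest at 130 ± 1.10 TPM, followed by Slc7a5 at 127 ± 3.10 TPM and Slc3a2 at 119 ± 0.199 TPM (SD, n = 2 each). The lower Slc38a2 library and the higher Slc7a5 library both stood at 129 TPM, so the order of these genes was not firm. In nonIR cells Slc7a5 led at 314 ± 0.246 TPM, followed by Slc3a2 at 190 ± 2.48 TPM and Slc38a2 at 153 ± 1.18 TPM (SD, n = 2 each). In IR cells Slc1a5 and Slc38a1 came next at 54.2 ± 0.146 and 53.1 ± 2.01 TPM (SD, n = 2), and these neighbours did not differ beyond their spread. Slc1a4 (40.2 TPM), Slc7a1 (29.9 TPM), Slc6a9 (10.2 TPM), Slc7a3 (6.41 TPM) and Slc43a1 (0.0218 TPM) followed in IR cells. In nonIR cells the order after Slc38a2 was Slc1a4 (106 TPM), Slc1a5 (101 TPM), Slc7a1 (61.2 TPM), Slc38a1 (49.0 TPM), Slc6a9 (20.3 TPM), Slc7a3 (3.64 TPM) and Slc43a1 (0.120 TPM). Slc1a4 and Slc1a5 both stood at 104 TPM in nonIR replicate 1, so their order was not firm either.

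The ranks depend on the length assigned to a gene, because several of these genes have long alternative exons (Slc38a1 has 17236 bases in the union of its exons and 7266 in its longest transcript). With the longest transcript as the length, an alternative chosen after seeing the data, Slc38a2 still led in IR cells (143 TPM) and Slc7a5 in nonIR cells (249 TPM). Slc3a2 then stood above Slc7a5 in IR cells, at 113 against 101 TPM. Slc38a1 stood at 95.6 TPM in IR cells and 87.2 TPM in nonIR cells on that length, and in nonIR cells Slc1a4, at 79.5 TPM, came after both Slc1a5, at 112 TPM, and Slc38a1. Ratios between genes shift with the length in the same way, so Slc1a5 was 1.95 and 2.06 times Slc1a4 in IR cells and 1.48 and 1.35 times in nonIR cells, and Slc38a2 was 1.46 and 1.52 times Slc38a1 in IR cells and 1.93 and 1.87 times in nonIR cells. The edgeR fold change of a single gene does not depend on the length, but its TPM and sums of TPM over several genes do. With the longest transcript the summed IR level was 0.534 times the nonIR level for partners of Slc3a2, against 0.515 times with the exon union, and 0.72 times for the cationic carriers, against 0.778 times. Slc7a1 then held 60.6% of the cationic sum in IR cells and 88.4% in nonIR cells.

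**Figure D3:**
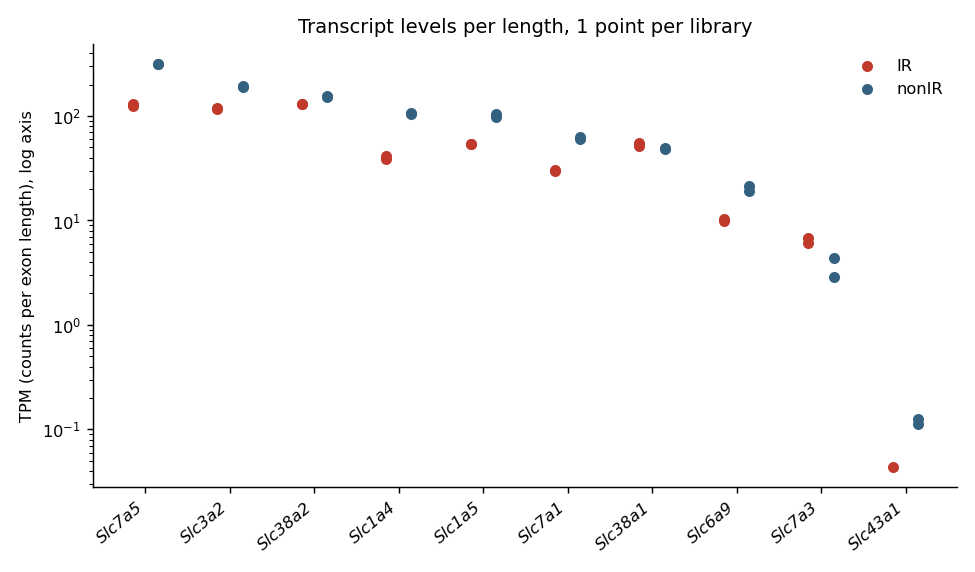
Transcript level per exon length (TPM, log axis) of the 10 transporter genes in each library, IR in red to the left of nonIR in blue, ordered by the nonIR mean. Slc7a5 stands at 314 TPM in both nonIR libraries and at 129 and 125 TPM in IR libraries, level with Slc38a2; the library in which Slc43a1 had 0 counts has no point.

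**Figure D4:**
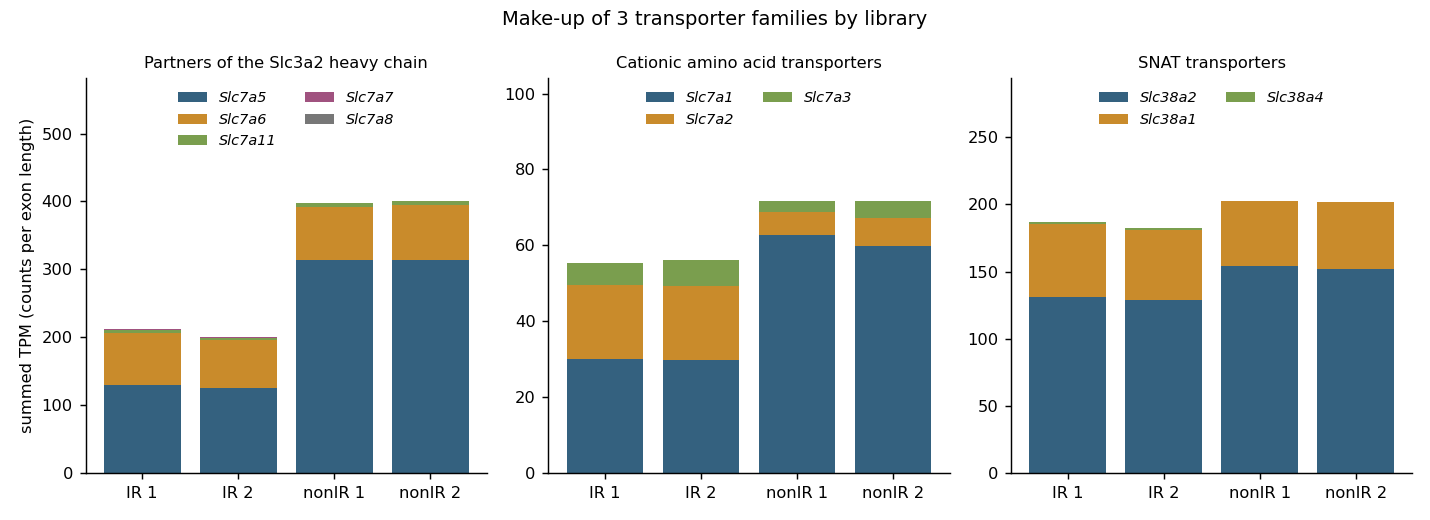
Summed level per exon length (TPM) of 3 transporter families in each library, IR libraries on the left, stacked by gene. Among partners of Slc3a2, the Slc7a5 segment shrinks while that of Slc7a6 changes far less. Among cationic carriers, Slc7a1 holds 54.3% and 53.2% of the sum in IR cells and 87.5% and 83.4% in nonIR cells.

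Other amino acid transporters moved in both directions. Of 45 further plasma membrane and lysosomal carriers on a list, 40 had a row and 21 were tested, of which 15 rose, 3 fell and 3 did not pass. Of the 21, 5 passed the filter through the IR libraries alone (Slc7a7, Slc7a15, Slc3a1, Slc1a2 and Slc38a4), and 4 of these were among the 15, so the count over tested genes is no measure of the list. At a mean of at least 10 CPM over all 4 libraries there were 13 of them, of which 8 rose, 3 fell and 2 did not pass, beside the 29.5% and 43.2% of all genes at that level that rose and fell. The list is described by these counts only, and low counts were more frequent in IR cells across the table: 7430 and 7371 of the 11263 genes under the filter had a count in IR cells, against 4315 and 4424 in nonIR cells. Slc6a15, a carrier of branched-chain amino acids and proline, was among the more abundant that rose, with 118 and 118 CPM in IR cells against 59.2 and 62.5 CPM in nonIR cells (log2 fold change 0.95, SE 0.05, edgeR adjusted p = 5.76e-69). Ctns, which exports cystine from lysosomes, rose 1.81-fold (65.4 ± 0.808 CPM in IR cells and 36.1 ± 2.95 CPM in nonIR cells; SD, n = 2; edgeR adjusted p = 2.77e-35). Slc7a11 (xCT), the cystine and glutamate exchanger that also pairs with Slc3a2, was 1 of the 3 that fell, with 13.2 and 11.6 CPM in IR cells against 20.4 and 22.9 CPM in nonIR cells (log2 fold change -0.80, SE 0.12, edgeR adjusted p = 5.26e-11).

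A pair of carriers were almost silent in nonIR cells. Slc1a2, the glial glutamate transporter, had 62 and 89 counts in IR cells and 0 and 2 in nonIR cells, or 76.0 times as many after scaling (exact 95% bounds 20.7 and 633, for counting error alone). For Slc7a15 the counts were 74 and 61 in IR cells and 1 and 1 in nonIR cells, or 67.9 times as many (18.4 and 567). Both genes passed the filter through the IR libraries alone and were named for the size of their change. The bounds do not allow for that choice, so the ratios are descriptions only. Slc6a7, a proline transporter, had 28 and 70 counts in nonIR cells, more than Slc1a2 or Slc7a15 had there. It rose 3.52-fold, with 6.55 and 5.58 CPM in IR cells against 1.02 and 2.40 CPM in nonIR cells (edgeR adjusted p = 2.29e-11).

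Of the 20 tested genes of the integrated stress response, the pathway through which ATF4 is induced, 10 fell and 6 rose. Their median log2 fold change was -0.22. Of all tested genes 30.3% fell and 30.4% rose, and at a mean of at least 10 CPM 43.2% fell and 29.5% rose. The counts of the list at that threshold were not far from the latter shares. A fitted fall of at least 2-fold was found for 4 of the 20. Of all tested genes 3.47% fell that far, and 2.69% did so at a mean of at least 10 CPM. Atf4 itself had 204 and 201 CPM in IR cells, against 473 and 460 CPM in nonIR cells, and fell 2.30-fold (log2 fold change -1.20, SE 0.03, edgeR adjusted p = 2.95e-274). Asns, asparagine synthetase, had 83.3 and 81.3 CPM in IR cells against 241 and 246 CPM in nonIR cells, and fell 2.96-fold (edgeR adjusted p = 3.81e-281). The pseudokinase gene Trib3 had the largest fall of the list, 3.48-fold, with 14.0 and 13.2 CPM in IR cells against 48.5 and 46.7 CPM in nonIR cells (edgeR adjusted p = 3.32e-81). All 3 are known ATF4-pathway genes whose IR and nonIR libraries were widely apart.

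The remaining named falls in that list were smaller. Chac1, a glutathione-degrading enzyme, fell 2.03-fold (edgeR adjusted p = 1.38e-25), Sesn2, a leucine-binding inhibitor of mTORC1, fell 1.85-fold (adjusted p = 2.07e-11) and the transcription factor gene Atf5 fell 1.79-fold (adjusted p = 1.66e-72). Of the 4 kinases that phosphorylate the initiation factor eIF2 upstream of ATF4, Eif2ak2 and Eif2ak3 rose. Eif2ak2 (PKR), which senses double-stranded RNA and is itself induced by interferon, had 138 and 137 CPM in IR cells against 72.6 and 67.9 CPM in nonIR cells (log2 fold change 0.97, SE 0.05, edgeR adjusted p = 2.64e-77). Eif2ak3 (PERK), which senses stress in the endoplasmic reticulum, rose 1.79-fold (adjusted p = 3.51e-21). The other two, named after their values were seen, did not pass: Eif2ak4 (GCN2), which senses uncharged tRNA, had a log2 fold change of -0.09 (edgeR adjusted p = 0.242) and Eif2ak1 (HRI), known for sensing heme, one of 0.04 (edgeR adjusted p = 0.59). Chosen after their values were seen, Ddit3 (CHOP) and the phosphatase subunit gene Ppp1r15a (GADD34) rose 1.59-fold and 1.68-fold (adjusted p = 1.07e-15 and 1.21e-16).

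Of the 20 tested genes that report amino acid supply to mTORC1, 10 rose and 7 fell, with a median log2 fold change of 0.15. Both directions were also common over all tested genes, of which 30.4% rose and 30.3% fell. At a mean of at least 10 CPM 29.5% of all genes rose and 43.2% fell. Flcn, encoding folliculin, a GTPase activator for the Rag proteins that hold mTORC1 at the lysosome, had 120 and 130 CPM in IR cells against 56.7 and 53.1 CPM in nonIR cells and rose 2.27-fold (log2 fold change 1.19, SE 0.05, edgeR adjusted p = 3.63e-104). Its partners Fnip1 and Fnip2 rose 1.85-fold and 1.77-fold (adjusted p = 2.27e-93 and 1.51e-66). Slc38a9, the lysosomal carrier that senses arginine, rose 1.67-fold, with 22.4 and 24.7 CPM in IR cells against 14.8 and 13.5 CPM in nonIR cells (edgeR adjusted p = 2.19e-10). Of the sestrins, Sesn1 and Sesn3 rose 1.54-fold and 1.93-fold (adjusted p = 3.14e-12 and 1.72e-44), the opposite of Sesn2. Mios, a subunit of the GATOR2 complex that activates mTORC1, fell 1.63-fold (adjusted p = 1.11e-12).

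**Figure D5:**
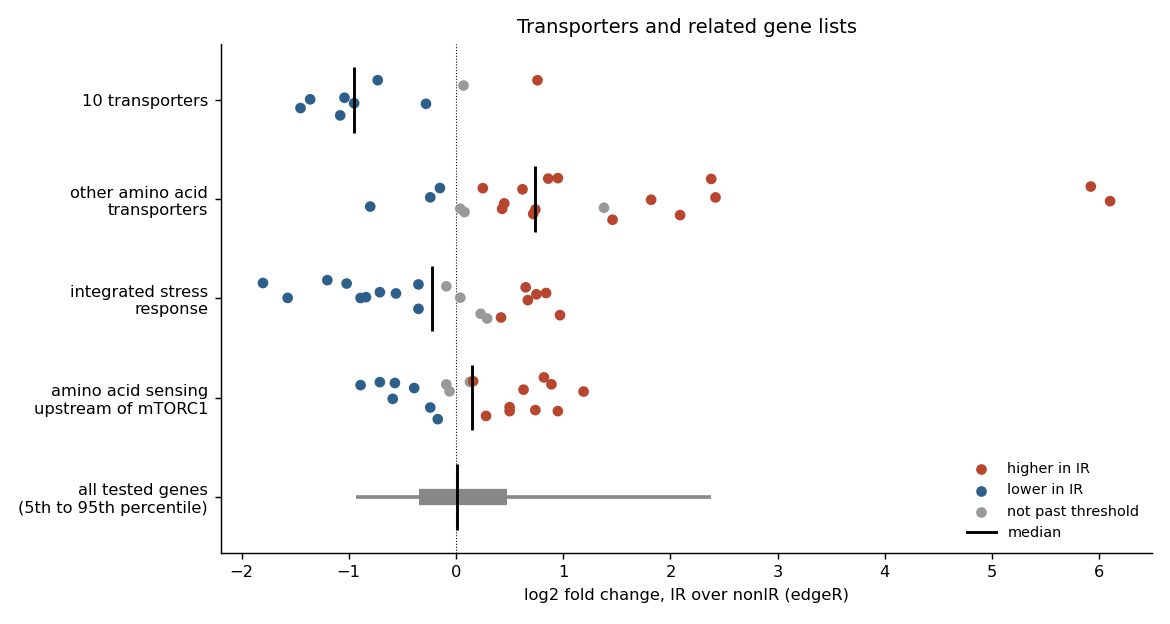
Log2 fold change of IR over nonIR for each tested gene of 4 lists (points, spread vertically for legibility; red rose, blue fell, grey did not pass; black bar at the list's median) above the spread of all tested genes (thick bar from the 25th to the 75th percentile, thin line from the 5th to the 95th). The tested genes of the 10 transporters have a median of -0.95; the other amino acid transporters include 5 genes that passed the filter through IR libraries alone.

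Several transporters fell and so did Atf4, but a link between these falls was not tested. Promoters were searched for the letters TGATGNAA, the core of the C/EBP-ATF response element through which ATF4 is known to act. RefSeq windows of 300 bases (GRCm38.p6, 250 before to 50 after a start site) were on hand for 6 of the 10 genes, in 9 windows: Slc3a2, Slc7a1, Slc1a4, Slc38a2, Slc6a9 and Slc43a1. On either strand, the letters occurred in 1 of the 9, that of Slc1a4. They occurred in 3.97% of all 32851 windows and in 6 of 22 windows of the integrated stress response list. The Slc1a4 stretch is shown because its match lies across the start site itself (chr11:20332704-20332963, minus strand, read 5′ to 3′ along the gene, 250 bases before to 10 bases from the start). The capitals mark the match, which runs on the opposite strand.
Slc1a4: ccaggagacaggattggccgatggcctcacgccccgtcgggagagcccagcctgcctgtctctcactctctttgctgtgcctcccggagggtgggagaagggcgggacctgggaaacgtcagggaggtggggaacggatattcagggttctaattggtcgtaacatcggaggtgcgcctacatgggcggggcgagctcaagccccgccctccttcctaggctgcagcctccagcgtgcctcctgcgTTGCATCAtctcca

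The matches in Slc1a4 and in 4 related genes, chosen from those that also fell, are set side by side below. Each is given on the strand on which it reads TGATGNAA, with 10 bases of flank. They are alike in those letters because the search required them, so only the free position and the flanks can differ. The Slc1a4 site (chr11:20332700-20332727), the first of those in Slc7a11 (chr3:50443662-50443689) and that in Chac1 (chr2:119351039-119351066) carry a C at the free position. Those in Asns (chr6:7693215-7693242) and Trib3 (chr2:152344029-152344056) carry A and T there.
Slc1a4 site: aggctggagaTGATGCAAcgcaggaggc
Slc7a11 site: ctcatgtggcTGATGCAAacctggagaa
Chac1 site: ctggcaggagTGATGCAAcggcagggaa
Asns site: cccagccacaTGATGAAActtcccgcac
Trib3 site: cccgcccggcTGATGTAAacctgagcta

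Matches were not limited to genes that fell. In the same lists they were also found for Slc7a7 and Nupr1, which rose, for Vldlr, which fell, and for Atf3, which did not pass. These genes are named for their match and not for the size of their change. Slc7a7 passed the filter through the IR libraries alone, so its rise carries no weight here. The E-box letters CACGTG, a palindrome known as a site of MYC and related factors, were found in 1 of the 9 windows of the 10 genes, that of Slc43a1, and in 7.15% of all windows. A match is a description of the letters and not evidence of a bound site.

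Markers of cell type were checked because the labels call MC38 an epithelial line. Of 11 epithelial markers, 10 had a row, and their summed level was 73.6 to 80.0 CPM in IR cells and 38.3 to 40.4 CPM in nonIR cells. Nearly all of that sum was Cdh1, with 73.0 and 67.7 CPM in IR cells and 36.3 and 34.6 CPM in nonIR cells. Cdh1 (E-cadherin) was clearly present, with 2173 and 1798 counts in IR cells and 998 and 1009 in nonIR cells, whereas Epcam had 0 and 1 counts in IR cells and 0 in both nonIR libraries. Fibroblast markers summed to 1104 and 1126 CPM in IR cells and 857 and 848 CPM in nonIR cells, most of it Col1a2. Of 7 leucocyte markers, 5 had a row. They summed to 38.5 and 32.4 CPM in IR cells and 5.02 and 4.04 CPM in nonIR cells, nearly all of it Cd68, a lysosomal membrane protein. The leucocyte markers Cd3e, Csf1r and Ms4a1 had at most 2 counts in any library, and Ptprc (CD45) had 24 and 17 counts in IR cells and 10 and 6 in nonIR cells (log2 fold change 1.34, edgeR adjusted p = 0.0857, did not pass). The 4 endothelial markers summed to 6.21 and 6.55 CPM in IR cells and 2.58 and 1.92 CPM in nonIR cells. The part of these shifts in the transporter results was not tested.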

How the data were processed

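Bulk RNA-seq of 4 libraries was analysed, 2 IR and 2 nonIR, grouped by sample title. HISAT, HISAT2, HTSeq, DESeq2 and the mm10 build stand in the submitters' processing notes, with no version or role. The sources used here do not state the annotation release, the strand setting or how multiply mapped reads were handled. The values deposited by the authors are raw whole-number counts per Ensembl gene, neither normalized nor pooled. The description of nonIR replicate 2 repeats the number of replicate 1, and the title, which matches the column name, was followed.

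Symbols, coordinates (1-based) and exon lengths came from GENCODE M21, the same build as mm10. Of 26561 IDs, 159 had no match. The whole table was tested with edgeR 4.0.16 in R 4.3.3 (filterByExpr by group, TMM, robust glmQLFit, glmQLFTest, Benjamini-Hochberg). The filter kept 15298 genes with 99.9% of the counts. CPM uses TMM-scaled library sizes, and SE is the absolute log2 fold change over the square root of F. The 95% intervals are 1.96 SE wide on each side. For 13772 genes the prior degrees of freedom were infinite, so their spread came from the trend over all genes. Replicates differed by more than sampling noise (mean chi-square per gene 4.73 for IR and 3.38 for nonIR, where sampling alone gives 1). Each library counted as a sample, although this excess does not tell separate cultures from repeat libraries of the same culture. The pipeline was tested on simulated counts in which every gene had the same biological spread, so that run does not cover genes whose spread differs.

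The 10 genes and the lists were chosen with earlier results of these data known. All 10 are named, with up to 8 members of each of the 3 other response lists, those past the threshold with the largest change at a mean of at least 1 CPM. Genes named beyond that rule are marked as such, or are named for a motif match, a family sum or their passing the filter. Overlap with other genes was checked for the 10 only. A marker gene of the lists is not reported here. Alternatives were RLE size factors, no TMM factor, DESeq2 1.42.0, no filter, no robust estimation, each library left out and a replicate block.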

Additional observations from a re-analysis of the deposited data

How the results depend on the processing

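The 7 falls (Slc1a4, Slc7a5, Slc7a1, Slc6a9, Slc1a5, Slc3a2 and Slc38a2) kept their direction and passed in all 10 alternatives. Their log2 fold changes ranged from -1.49 to -1.39 for Slc1a4 and from -0.30 to -0.22 for Slc38a2, the strongest and weakest of them. The number of the 10 genes that rose was 2 with no TMM factor, where Slc38a1 passed at 0.13 (edgeR adjusted p = 9.20e-04), and ran from 0 to 1 when each library was left out in turn. Leaving out nonIR replicate 1 removed the call of Slc7a3. Its log2 fold change ran from 0.47 to 1.10 over the 4 fits without a library (edgeR adjusted p of 0.0958 without nonIR replicate 1), in which the lone library of a group is assumed to vary like the other group. Without the TMM factor the median of all genes shifted by 0.059. The counts for the 3 other lists and for all genes stayed within 1.5 times. Same-numbered libraries did not deviate together (Pearson r of their deviations from the group means, across genes, was -0.0106), so the replicate numbers were not taken as pairs, and a replicate block left 7 genes lower and 1 higher. No alternative is given for Slc43a1, whose counts are too few for a fold.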

Other observations

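The 19 transporters of the wider list that were below the filter on low counts summed to 58 and 55 counts in IR cells and to 11 and 9 counts in nonIR cells. Of the 19 genes, 13 and 14 had a count in IR cells and 5 had one in each nonIR library. Of all 11263 genes below the filter, 66.0% and 65.4% had a count in IR cells and 38.3% and 39.3% in nonIR cells, so low counts were more frequent in IR cells across the table. For 6 of the 19 (31.6%) each IR library held more counts than either nonIR library and for 0 the order was the other way, beside 23.0% and 4.82% of all genes below the filter. Over all genes below the filter the sums were 32788 and 30222 counts in IR cells and 15618 and 16464 in nonIR cells. These are counts with no test.

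Slc6a6, the taurine transporter, was the most abundant gene of the wider list and was chosen after its values were seen. It had 575 and 578 CPM in IR cells, against 567 and 555 CPM in nonIR cells, and did not pass (log2 fold change 0.04, SE 0.03, edgeR adjusted p = 0.229). Slc36a1, a proton-coupled carrier of lysosomes chosen in the same way, had 50.3 and 49.0 CPM in IR cells, against 32.3 and 32.2 CPM in nonIR cells, and rose 1.54-fold (edgeR adjusted p = 1.31e-15).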
